A study of Mus musculus with 4 samples.

Results

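Hexosamine synthesis and glycogen storage are 2 branches that draw glucose away from glycolysis, and 10 of their genes were followed in 4 lung tumours of KP mice. The members were Gfpt1, Gfpt2, Gnpnat1, Pgm3, Uap1, Ogt, Gys1, Pygl, Pygb and Ugp2, taken by gene symbol from the combined count table, 10 of 39017 gene identifiers. KP mice of the C57BL/6 strain have floxed Trp53 and form lung adenocarcinomas once Cre recombinase reaches the airways. Males received 1500 viral units of a lentivirus by the trachea, in which the broadly active PGK promoter drives Cre, so that recombination was not restricted to a chosen cell type. Tumours were macrodissected 22 weeks and 5 days later and dissociated. RNA of the whole suspension was sequenced as polyadenylated transcripts from 500 ng. The labels give all 4 samples as Control and as heterozygous fl/wt without naming the floxed gene, the deposited log2 table marks them WT, and per the methods a control mouse could have 0 or 1 floxed Slc2a1 allele. The tumours are numbered 1 to 4 as in the labels. No label says that they came from 4 mice or that a library held 1 lesion, so p-values concern only these samples. Those per gene set the counts against counting noise and depend on depth as well as spread. Those for pairs of genes rest on how steadily 1 gene exceeds the other.

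Total counts were between 8151613 and 8799007 per tumour, and 14225 genes had a mean of at least 1 CPM (counts scaled to 1e+06 of the TMM-scaled library). At this depth 3 counts, set as the floor and about the 95% upper limit for a count of 0, equalled 0.330 to 0.370 CPM. Trp53, the floxed tumour suppressor, was still read at 11.9 ± 1.49 CPM (SD, n = 4). The alveolar type 2 markers were abundant, with Sftpc, a surfactant protein, at 17722 to 29617 CPM, and the summed level of that list was 31917 to 56379 CPM. Tumour 1 had the lowest alveolar type 2 sum. Tumour 3 was highest for 5 of 5 pan-leukocyte markers, against 30.2% of all genes. Their summed level was 269 CPM there against 114 to 156 CPM in the other tumours. Because these are bulk samples, fewer cells of a type and less RNA per cell cannot be told apart.

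The hexosamine pathway converts fructose 6-phosphate, with glutamine as the amino donor, into UDP-GlcNAc, the sugar donor for N-glycans, hyaluronan and the O-GlcNAc mark on nuclear and cytoplasmic proteins. Glutamine-fructose-6-phosphate transaminase, encoded by Gfpt1 or Gfpt2, makes the first committed step. Glycogen is built from UDP-glucose by glycogen synthase and taken apart by glycogen phosphorylase, and in the lung it is known as a carbon store of immature type 2 cells that is used up as surfactant is made.

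For 2 steps the tumours expressed a pair of paralogues, so it mattered whether reads of 85 nt could be told apart. The coding sequences of Gfpt1 and Gfpt2 were 71.9% identical in alignment and those of Pygb and Pygl 75.2%. The most alike 85 nt window of each pair is shown from the GENCODE M21 transcripts (GRCm38), 5′ to 3′ in the sense of the transcript, with capitals at the bases that differ between the paralogues. The Gfpt1 window lies at chr6:87063893-87066690 on the plus strand across exons 10 and 11 of 20, and the Gfpt2 window at chr11:49819237-49823278 on the plus strand across exons 9 and 10 of 19. Both spans include an intron that is not printed. The Pygb window lies at chr2:150786970-150787054 on the plus strand and the Pygl window at chr12:70227397-70227481 on the minus strand, each in coding exon 1 of 20.
Gfpt1: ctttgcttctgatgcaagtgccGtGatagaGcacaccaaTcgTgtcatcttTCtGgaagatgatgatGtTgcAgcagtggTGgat
Gfpt2: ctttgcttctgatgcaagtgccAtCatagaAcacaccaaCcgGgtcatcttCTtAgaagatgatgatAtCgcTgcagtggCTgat
Pygb: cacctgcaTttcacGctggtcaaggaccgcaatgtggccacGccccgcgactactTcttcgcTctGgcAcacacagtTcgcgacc
Pygl: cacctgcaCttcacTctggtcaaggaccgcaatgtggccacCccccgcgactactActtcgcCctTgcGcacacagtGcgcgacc
Even here, 13 of 85 bases differed between Gfpt1 and Gfpt2 and 8 of 85 between Pygb and Pygl. The longest run of shared bases was 23 nt in the first pair and 29 nt in the second, shorter than a read.

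The stretch before the start site is shown for the same transaminase genes, since they had the widest difference in level between paralogues. These are the 250 bases upstream of the RefSeq start on GRCm38.p6, at chr6:87042596-87042845 for Gfpt1 and chr11:49793905-49794154 for Gfpt2, both on the plus strand. Capitals mark matches, on either strand, to ACGTG, the core letters of the hypoxia response element, to CCACG, which ends the endoplasmic reticulum stress element, or to TGACG, part of the cyclic AMP response element.
Gfpt1 upstream: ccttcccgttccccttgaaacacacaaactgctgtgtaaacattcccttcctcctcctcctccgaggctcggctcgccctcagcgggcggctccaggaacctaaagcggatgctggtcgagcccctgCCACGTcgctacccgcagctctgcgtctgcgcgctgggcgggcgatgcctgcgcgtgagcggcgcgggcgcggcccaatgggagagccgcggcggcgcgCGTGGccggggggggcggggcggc
Gfpt2 upstream: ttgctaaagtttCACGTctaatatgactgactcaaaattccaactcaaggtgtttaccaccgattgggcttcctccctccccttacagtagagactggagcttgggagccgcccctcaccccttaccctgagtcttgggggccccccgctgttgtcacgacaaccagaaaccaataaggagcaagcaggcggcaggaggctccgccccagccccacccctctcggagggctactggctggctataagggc
In Gfpt1 a CCACG on the plus strand overlapped an ACGTG on the minus strand, 123 and 122 bases before the start, and a second CCACG match lay 24 bases before it. Gfpt2 had 1 match, ACGTG 238 bases before the start. RefSeq windows were matched for the members other than Gnpnat1 and numbered 11, since Ugp2 and Ogt each had more than 1 start. ACGTG was found in 5 of the 11 windows (Gfpt1, Gfpt2, Pygb, Pygl and Ugp2) and in 16.6% of 32851 windows of the same length over the genome. CCACG was in 6 of 11 (Gfpt1, Gys1, Pygb, Pygl, Uap1 and Ugp2) against 28.3%, and TGACG in 3 of 11 (Pygb, Pygl and Uap1) against 17.8%. The palindrome CACGTG, which contains ACGTG on both strands and is bound by Myc and the glucose sensor MondoA, was in 0 of 11 windows against 6.02%. These counts describe letters in a window and not bound sites.

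Per kilobase of annotated exon, Ogt was the most abundant member at 72.6 ± 22.4 CPM per kb (SD, n = 4), followed by Ugp2 at 56.7 ± 5.14, Gfpt1 at 47.4 ± 14.4 and Pygb at 40.0 ± 5.41 CPM per kb. Gys1 at 22.1 ± 6.79, Uap1 at 19.0 ± 5.55 and Gnpnat1 at 17.4 ± 3.28 CPM per kb formed the middle of the order. Pgm3 at 7.61 ± 1.24, Pygl at 4.02 ± 1.73 and Gfpt2 at 1.83 ± 1.54 CPM per kb were lowest. Pygb lay above Gys1, Gnpnat1 above Pgm3 and Pgm3 above Pygl in 4 of 4 tumours, while the other 6 neighbouring pairs changed order in at least 1 tumour. For 5 of those 6 the mean log2 difference was smaller than its SD, and for Pygl over Gfpt2 it was 1.399 ± 1.256 (SD, n = 4), with Pygl higher in 3 of 4 tumours. Flipping signs over 4 tumours, an exact permutation test and two-sided, gives a p of 0.13 (rounded) at the smallest, so none of these orders could pass 0.05.

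**Figure D1:**
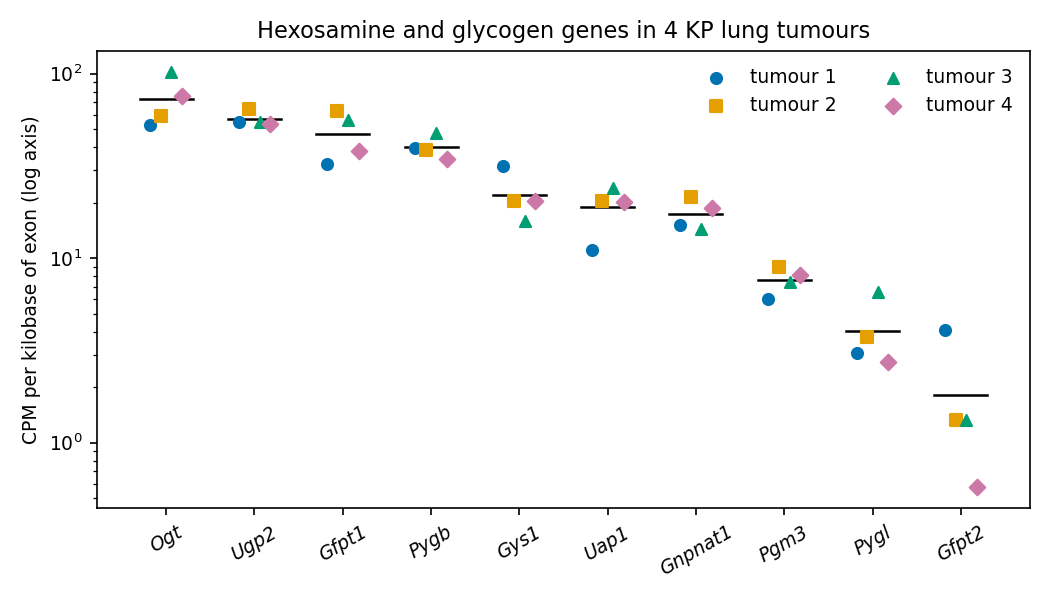
Level of each member in each tumour, in CPM per kilobase of exon on a log axis, with a black bar at the mean of 4 tumours. Members run from Ogt (mean 72.6) to Gfpt2 (mean 1.83), and tumour 1 stands above the other tumours for Gfpt2 and Gys1.

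All 10 members passed the filter, and all 10 varied between tumours beyond counting noise (chi-square test of the 4 counts, Benjamini-Hochberg adjustment over all genes tested), as did 76.7% of all genes, so the count is close to what most genes showed. Adjusted p ran from 4.65e-05 for Pgm3 to 8.85e-305 for Ogt. With 1 library per sample, variation from dissociation or library preparation cannot be told apart from variation between tumours. The call was lost for Pgm3 without tumour 1 (adjusted p = 0.102) and for Ugp2 without tumour 2 (adjusted p = 0.886). The SD of log2 CPM over the tumours had a median of 0.42 over the members and 0.29 over all genes tested. The highest tumour was over 2 times the lowest for 4 of 10 members (Gfpt2, Pygl, Uap1 and Gys1), against 28.5% of all genes.

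Tumours 2 and 3 each had the highest level of 4 members, tumour 1 of 2 members and tumour 4 of 0, where 20.4%, 30.2%, 31.4% and 18.0% of all genes were highest in those tumours. The lowest level fell in tumour 1 for 4 members, in tumour 4 for 4, in tumour 3 for 2 and in tumour 2 for 0, against 30.4%, 17.7%, 32.5% and 19.4% of all genes. Gfpt1, Pgm3, Uap1 and Ogt were lowest in tumour 1, where Gfpt2 and Gys1 were highest. The 10 members therefore did not move together as 1 block.

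**Figure D2:**
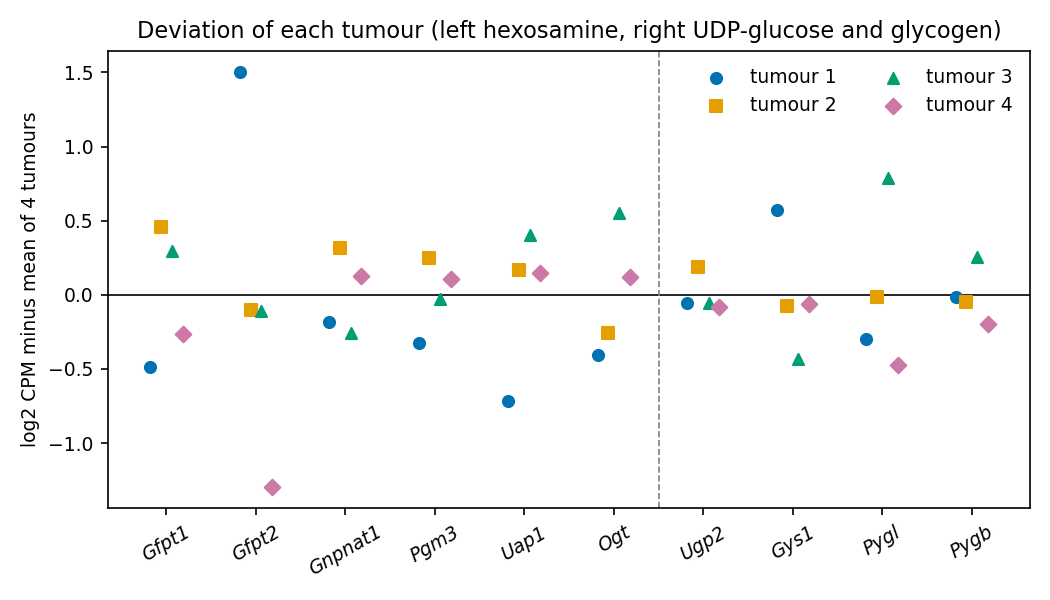
Log2 CPM of each member in each tumour minus its mean over the 4 tumours, with hexosamine genes left of the dashed line and UDP-glucose and glycogen genes right of it. Gfpt2 had the widest spread (SD 1.15) and Ugp2 the narrowest (SD 0.13).

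Gfpt1 (chromosome 6, 87042846 to 87092197, plus strand), the widely expressed transaminase, was read at 328, 633, 564 and 383 CPM in tumours 1 to 4. Tumours 2 and 3 were high and tumours 1 and 4 low, a range of 1.93-fold with an SD of log2 CPM of 0.45. Gfpt2 (chromosome 11, 49794178 to 49838613, plus strand), a paralogue known from mesenchymal cells and some lung cancers, was read at 22.8, 7.43, 7.40 and 3.21 CPM in tumours 1 to 4, from 207, 64, 60 and 27 counts. Tumour 1 was 2.01 above the mean of the other 3 on the log2 scale and tumour 4 was lowest, a range of 7.09-fold. With an SD of 1.15 it ranked 618 among 14225 genes by spread, and it was the only member in the top 10 percent. Without tumour 1 its SD was 0.69.

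Within each tumour Gfpt1 exceeded Gfpt2 per kilobase, by log2 differences of 3.00, 5.55, 5.39 and 6.02 in tumours 1 to 4. The mean log2 difference was 4.99 ± 1.36 (SD, n = 4), which is 31.8-fold, higher in 4 of 4 tumours (p = 0.13, adjusted over 5 pairs 0.13, exact sign-flip permutation test). Without tumour 1 it was 5.65, or 50.4-fold, and without tumour 2, 3 or 4 the fold was 27.9, 29.0 or 25.0. Over 4 tumours the fold was 57.3 with no division by length and 27.0 with the length of the longest transcript. Gfpt2 made up 11.1% of the per-kilobase sum of both genes in tumour 1, with a 95% Wilson interval carried over from the counts of 9.80 to 12.6%. In tumours 2 to 4 its share was 2.07% (1.63 to 2.63%), 2.31% (1.80 to 2.96%) and 1.49% (1.03 to 2.15%). The interval of tumour 1 lay apart from the others, and the mean share of 4.25% ± 4.59 (SD, n = 4) became 1.96% without it. Intervals cover counting error only. The reads carried no molecular identifiers, so duplicate reads of the same molecule would leave these intervals too narrow.

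**Figure D3:**
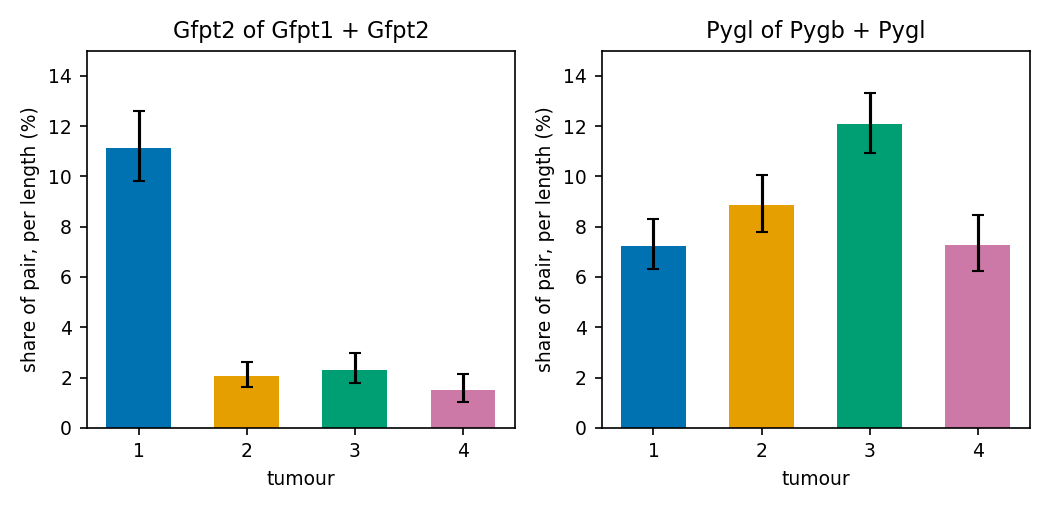
Share of the second paralogue in the per-kilobase sum of its pair, in percent, by tumour, with bars starting at 0 and 95% Wilson intervals for counting error. Gfpt2 reached 11.1% in tumour 1 and 1.49 to 2.31% elsewhere, whereas Pygl ran from 7.24 to 12.1%.

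The 5 genes whose tumour pattern lay nearest to that of Gfpt2, among 10268 other genes with a mean of at least 10 CPM, were Chst4, Shisa6, Fbln2, Col1a1 and Hist1h1c, at root mean square distances of 0.27 to 0.34 in centred log2 CPM over 4 tumours. Chst4, a sulfotransferase acting on GlcNAc residues, was read at 23.9, 10.1, 10.9 and 5.71 CPM in tumours 1 to 4. Col1a1, the alpha 1 chain of type I collagen, was read at 125, 66.9, 49.4 and 32.2 CPM. Both were highest in tumour 1 and lowest in tumour 4, which follows largely from their being picked for likeness to Gfpt2. Of the fibroblast marker list, to which Col1a1 belongs, 4 of 7 genes were highest in tumour 1, against 31.4% of all genes. In tumour 4, 4 of 7 were lowest, against 17.7%. Both counts include Col1a1, which was itself picked for its likeness to Gfpt2. The summed level was 568, 429, 533 and 325 CPM, with none of its defining genes at 0. By the mean log2 CPM of the list, 5.32, 5.33, 5.38 and 4.96, tumour 1 was not the highest, and tumour 4 was again lowest. Pdgfra and Dcn, also fibroblast markers, were highest in tumour 3 instead. The part of these cells in the Gfpt2 difference was not tested.

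The 3 enzymes between the first step and UDP-GlcNAc were read at intermediate levels. Gnpnat1 (chromosome 14, 45376334 to 45404913, minus strand), which acetylates glucosamine 6-phosphate, was read at 71.4, 101, 67.9 and 88.8 CPM. Tumours 2 and 4 were the higher pair, with an SD of log2 CPM of 0.27. Its values are uncertain, because transcripts of 58 other genes hold a near-identical stretch and the counting may have split or lost reads. Among the genes that the count table lists, the long stretches were in Styx and Gm14698, neither read above 2.85 CPM. Styx, on the opposite strand, shared 2153 nt, and Gm14698 shared 552 nt at 99.8% identity. The processed pseudogene AC132351.1 held 556 nt at 98.6% identity but is not listed in the count table, so reads lost to it would not show. Shorter stretches lay in genes read as strongly as Gnpnat1 or more, such as 108 nt in Rbm25, at 264 to 338 CPM, and 92 nt in Ptprg, at 57.3 to 118 CPM.

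Pgm3 (chromosome 9, 86554377 to 86571842, minus strand), the phosphoacetylglucosamine mutase, was read at 27.0, 40.1, 33.2 and 36.4 CPM. Tumour 1 was lowest, the SD was 0.24, and it was 0.13 without tumour 1. Dop1a on the opposite strand shares 1027 nt of exon and was read at up to 55.04 CPM. The methods name a stranded library kit, but the strand setting of the counting is not given in the sources used here. Reads of the shared part therefore cannot be assigned with certainty. Uap1 (chromosome 1, 170141938 to 170174957, minus strand), the pyrophosphorylase that makes UDP-GlcNAc, was read at 44.6, 82.4, 96.7 and 81.1 CPM. Tumour 1 lay below the others by 0.96 on the log2 scale, and the SD of 0.49 became 0.14 without it. Stretches of Uap1 of up to 144 nt recur in transcripts of 5 other genes, none of them read above 8.36 CPM where the count table lists them. In tumour 1 the alveolar type 2 list was lowest for 6 of 8 genes, against 30.4% of all genes. Its summed level there was 31917 CPM against 48095 to 56379 CPM, with none of its genes at 0. In the same tumour 3 of 3 club cell markers were lowest, with a summed level of 36.4 CPM against 521 to 878 CPM. The epithelial list had its highest sum there, 4262 CPM against 2778 to 3029 CPM. Of its genes, 3 of 5 were highest in tumour 1, against 31.4% of all genes, and 2 of 5 lowest, against 30.4%. The part of these cells in the low Uap1, Pgm3 and Gfpt1 values was not tested.

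Ogt (chromosome X, 101640060 to 101684351, plus strand), the transferase that places O-GlcNAc on proteins, was read at 425, 472, 826 and 612 CPM. Tumour 3 was highest and tumours 1 and 2 low, and the SD of 0.43 became 0.27 without tumour 3. Oga, the hydrolase that takes O-GlcNAc off and appears in the count table as Mgea5, was read at 260, 274, 405 and 266 CPM. Tumour 3 was again highest. Ogt exceeded Oga per kilobase in 4 of 4 tumours, by a mean log2 difference of 1.03 ± 0.22 (SD, n = 4) or 2.04-fold (p = 0.13, adjusted 0.13, exact sign-flip permutation test), with differences of 0.81, 0.88, 1.12 and 1.30 in tumours 1 to 4. Writer and eraser thus had the same highest tumour, while their ratio was highest in tumour 4.

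Ugp2 (chromosome 11, 21321138 to 21371201, minus strand), which makes UDP-glucose for glycogen and glycosylation, was read at 167, 198, 167 and 164 CPM. It was the steadiest member, with an SD of 0.13 at percentile 11.2 of all genes. Tumour 2 alone was higher, and without it the SD was 0.014. Measured as the gap to the next tumour relative to the full range, 1 of 10 members, Ugp2, had a tumour apart by Dixon's criterion, against 5.86% of all genes. Ugp2 exceeded Uap1, the enzyme of the same kind of reaction in the hexosamine branch, in 4 of 4 tumours by a mean log2 difference per kilobase of 1.63 ± 0.48 (SD, n = 4) or 3.10-fold (p = 0.13, adjusted 0.13, exact sign-flip permutation test). The difference was 2.29 in tumour 1, where Uap1 was low, and 1.18 to 1.65 in the other tumours, and with the length of the longest transcript in place of all exons the fold was 2.04.

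Gys1 (chromosome 7, 45434844 to 45456619, plus strand), the glycogen synthase of muscle and most other tissues, was read at 152, 97.2, 76.0 and 98.0 CPM. Tumour 1 was 0.76 above the mean of the others on the log2 scale, tumour 3 was lowest, and the SD of 0.42 became 0.21 without tumour 1. Ruvbl2 on the opposite strand shares 290 nt of exon and was read at 53.0, 30.1, 20.4 and 29.4 CPM, with the same highest and lowest tumours, and its part in the Gys1 values was not tested. Gys2, the liver synthase, had 0 counts in all 4 tumours, under the floor of 0.330 to 0.370 CPM.

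Pygb (chromosome 2, 150786735 to 150831758, plus strand), the brain form of glycogen phosphorylase, was read at 190, 185, 229 and 167 CPM. Its SD of 0.19 lay at percentile 26.3 and became 0.10 without tumour 3. Pygl (chromosome 12, 70190811 to 70231488, minus strand), the liver form, was read at 21.2, 25.8, 45.0 and 18.8 CPM. Tumour 3 was 1.05 above the mean of the others on the log2 scale, and the SD of 0.56 became 0.23 without it. Pygm, the muscle form, stood at 0.990, 0.813, 2.34 and 0.714 CPM, so that Pygb carried most phosphorylase reads in every tumour.

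Pygb exceeded Pygl per kilobase in 4 of 4 tumours by a mean log2 difference of 3.39 ± 0.38 (SD, n = 4) or 10.5-fold (p = 0.13, adjusted 0.13, exact sign-flip permutation test). The Pygl share of the pair was 7.24% (6.31 to 8.31%), 8.85% (7.78 to 10.05%), 12.1% (10.9 to 13.3%) and 7.29% (6.26 to 8.48%) in tumours 1 to 4, with a mean of 8.87% ± 2.27 (SD, n = 4). The annotated exons of Pygl add up to 6895 nt against 3150 nt in its longest transcript, and with the latter length the mean share was 14.7% and the fold 5.90. In tumour 3, where Pygl was highest, the summed levels of the pan-leukocyte list (269 CPM), the macrophage list (314 against 217 to 239 CPM) and the neutrophil list (68.6 against 28.1 to 48.2 CPM) were also highest, and none of their genes was at 0. Within these lists 5 of 5 pan-leukocyte, 5 of 8 macrophage and 3 of 6 neutrophil genes were highest in tumour 3, against 30.2% of all genes. The complement genes C1qa, C1qb and C1qc of the macrophage list were instead lowest there. The part of these cells in the Pygl value was not tested.

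Gys1 stood below the sum of both phosphorylases per kilobase in 4 of 4 tumours, with a mean log2 difference of -1.03 ± 0.56 (SD, n = 4) or a ratio of 0.490 (p = 0.13, adjusted 0.13, exact sign-flip permutation test). The ratio was 0.747 in tumour 1 and 0.294 in tumour 3, the tumours where Gys1 was highest and lowest.

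Around the members, 7 lists of 61 partner genes were read, of which 54 passed the filter and 47 varied beyond counting noise, against 76.7% of all genes. The median SD over these 54 genes was 0.36. Glycogen regulators had a median SD of 0.46 and glycogen breakdown partners of 0.44, while the hexosamine salvage list had 0.31 and the sialic acid list 0.33. Of the 54 tested partners, 23 were highest in tumour 3 and 17 in tumour 1, where 30.2% and 31.4% of all genes were highest. Tumour 1 was lowest for 21 partners and tumour 3 for 15, against 30.4% and 32.5% of all genes.

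**Figure D4:**
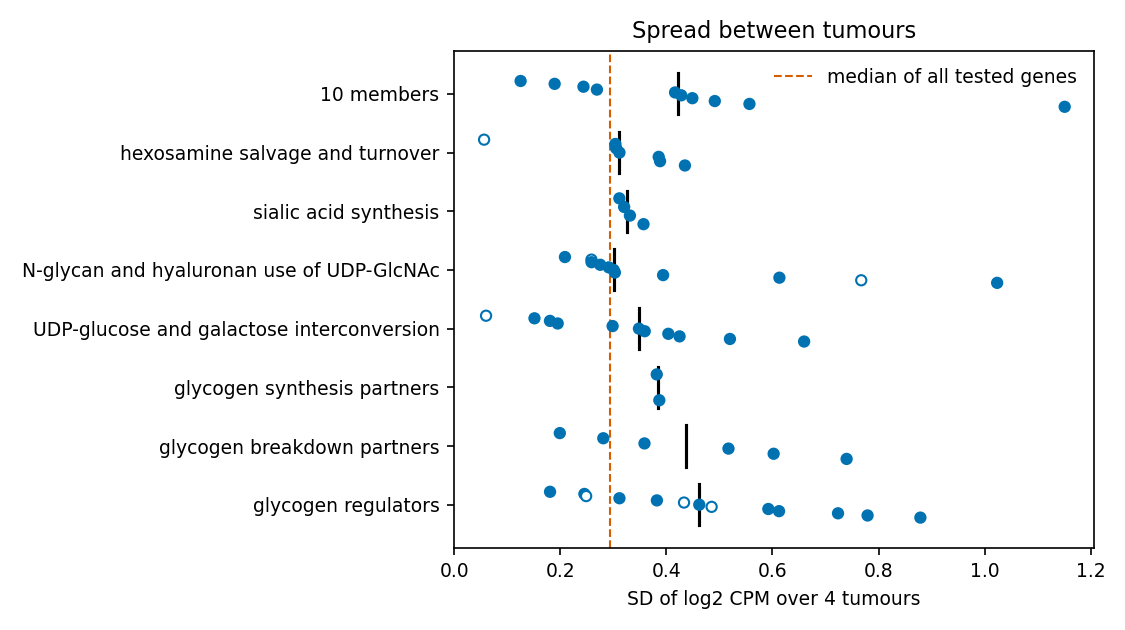
SD of log2 CPM over 4 tumours for each tested gene of the member list and the 7 partner lists, with filled points for genes that varied beyond counting noise, a black bar at each list's median and a dashed line at the median of all tested genes (0.29). Gfpt2 at 1.15 is the rightmost point and Mgat3 at 1.02 the next.

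Among users of UDP-GlcNAc, Mgat3, which adds the bisecting GlcNAc of N-glycans, was read at 64.5, 42.4, 16.8 and 85.4 CPM and had the largest SD of the genes in its list that passed the filter. Tumour 3, highest for Ogt and Uap1, was lowest for Mgat3. Mgat2, a branching enzyme of the same pathway, stood at 81.3 to 115 CPM and was the highest of its list per kilobase, and Has3, a hyaluronan synthase, was at 0.494 to 1.67 CPM and did not vary beyond counting noise (adjusted p = 0.131). In salvage and turnover, Uap1l1, a Uap1-like gene, stood at 31.5 to 57.8 CPM and Eogt, the transferase for O-GlcNAc on secreted proteins, at 43.4 to 83.8 CPM, both highest in tumour 3. In sialic acid synthesis, Nans, the sialic acid synthase, stood at 41.9 to 75.3 CPM with tumour 1 highest and Renbp, the GlcNAc epimerase, at 68.9 to 119 CPM with tumour 3 highest, and Nanp was at 3 counts or fewer in all tumours.

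Of the genes that feed UDP-glucose and galactose, Galk1, galactokinase, was read at 26.3, 10.3, 9.63 and 14.7 CPM. It was highest in tumour 1, as Gys1 was. Pgm2l1, glucose 1,6-bisphosphate synthase, stood at 6.71 to 16.2 CPM. The identifier ENSMUSG00000025791, named Pgm2 in the count table and Pgm1 in GENCODE M21, was the most abundant of the list per kilobase at 114 to 189 CPM, so the symbol of this phosphoglucomutase depends on the annotation.

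In glycogen synthesis, Gyg, the glycogenin that primes the chain, stood at 25.1 to 48.4 CPM and Gbe1, the branching enzyme, at 20.6 to 38.0 CPM, both highest in tumour 3, where Gys1 was lowest. In breakdown, Gaa, the lysosomal glucosidase, was read at 122, 115, 49.0 and 88.5 CPM. It was lowest in tumour 3, in contrast to Pygl and Pygb. Stbd1, a glycogen-binding protein, was read at 55.8, 103, 127 and 105 CPM, and G6pc, which releases free glucose in liver, was at 3 counts or fewer in all tumours.

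Among regulators, Epm2a, the glycogen phosphatase laforin, was read at 3.30, 6.39, 14.7 and 5.95 CPM. Ppp1r3b, which targets protein phosphatase 1 to glycogen, was read at 18.8, 33.0, 63.6 and 22.2 CPM. Both were lowest in tumour 1 and highest in tumour 3, the reverse of Gys1. Ppp1r3c, another targeting subunit and the most abundant regulator per kilobase, was read at 46.0, 94.8, 118 and 95.3 CPM. Phkg1 and Ppp1r3g had 0 counts in all 4 tumours, under the floor of 0.330 to 0.370 CPM.

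Upstream of both branches, the transporter Slc2a3 was read at 312, 25.6, 456 and 70.6 CPM, with tumours 1 and 3 high. Slc2a1, the main transporter of the study, was read at 104, 59.5, 65.4 and 44.0 CPM. Like Gfpt2, Slc2a1 was highest in tumour 1 and lowest in tumour 4. Hk1 stood at 64.3 to 106 CPM, Hk2 at 111 to 148 CPM and Gpi1, which makes the fructose 6-phosphate used by Gfpt1 and Gfpt2, at 389 to 606 CPM with tumour 1 highest. Of 2 response lists, 5 of 8 hypoxia genes were highest in tumour 1, against 31.4% of all genes. Another 2 of 8 were highest in tumour 4, against 18.0%. Car9, a hypoxia-induced carbonic anhydrase, was read at 5.28, 2.56, 1.60 and 0.714 CPM. Adm, adrenomedullin, stood at 0.348 to 1.90 CPM and Bnip3, a mitophagy receptor, at 166 to 267 CPM. Car9, like Gfpt2, was highest in tumour 1 and lowest in tumour 4, from 48, 22, 13 and 6 counts. Adm was highest in tumour 4, but from only 12, 3, 15 and 16 counts in tumours 1 to 4, so tumours 3 and 4 were nearly level. The unfolded protein response list, whose known targets include Gfpt1, had 4 of 8 genes highest in tumour 2, as Gfpt1 was, against 20.4% of all genes. In the same list the other 4 were highest in tumour 4 (18.0% of all genes) and 5 of 8 lowest in tumour 1 (30.4%). In that list Hsp90b1, a chaperone, was read at 1089, 1712, 1346 and 1330 CPM, Herpud1 at 92.2 to 138 CPM and Ddit3 at 7.55 to 12.5 CPM. The part of these responses in the member values was not tested.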

How the data were processed

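Raw counts per Ensembl gene were deposited by the authors with no normalization, together with a table of log2 normalised counts that the authors' methods describe as TMM and voom. Submitters' processing notes name bcl2fastq 2.17, cutadapt 1.4.2, HISAT2, featureCounts 1.4.4, edgeR and mm10, and the methods give single-end reads of 85 nt. Libraries were made with a stranded mRNA kit per the methods, but the strand setting of the counting and the annotation release are not given in the sources used here. Combined and single-tumour tables were checked, and 156068 of 156068 values were equal. An allele of the mouse model is not reported here.

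TMM factors (0.980 to 1.03) came from edgeR 4.0.16 in R 4.3.3. For log2 CPM, counts were raised by 0.5 and effective library sizes by 1. Genes with a mean of at least 1 CPM were tested for spread by a chi-square test with 3 degrees of freedom and Benjamini-Hochberg adjustment, a test checked on simulated data. No 2 libraries agreed within sampling noise (chi-square per gene 17.5 to 69.1). Of 39017 identifiers, 37607 were found in GENCODE M21, which gave positions and exon lengths. Copies were sought with BLAST 2.17.0 at 97% identity over 80 nt. Per-kilobase levels divide by the union of annotated exons. The design has 1 group, so paralogues and opposing enzymes were compared within tumours by the exact sign-flip test. Members and lists (158 entries, 158 matched, 3 by an older symbol) were chosen with earlier results of these data known. Genes named were all members, Oga, Slc2a1, Slc2a3, Hk1, Hk2 and, for each list, the 2 with the largest SD, the most abundant per kilobase and those at 3 counts or fewer in all tumours, plus the 5 genes nearest to Gfpt2 in pattern. Single cell type markers, Trp53 and genes that overlap members or share stretches with them were named outside that rule, after their values were seen. Alternatives were other scalings, filters, pseudocounts and lengths, the deposited log2 values, and leaving out each tumour.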

Additional observations from a re-analysis of the deposited data

Results flagged for a closer look

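Of 69 results in groups of 4 tumours, 7 had 1 tumour standing apart by the gap to its neighbour over the whole range (Dixon's criterion). Chance at 5% would give 3.45, and 5.86% of all genes tested had a tumour apart. The results overlap, since Oga belongs to the hexosamine salvage list, and not every partner gene was among them. The expected number is thus a guide and no test. Tumour 2 stood apart for Ugp2 at 198 CPM, against 164 to 167 CPM elsewhere. Tumour 3 stood apart for Oga at 405 CPM, against 260 to 274 CPM, and for the mean log2 CPM of the hexosamine salvage list at 5.91, against 5.57 to 5.60. It also stood apart for the T cell list, with a mean log2 CPM of 2.23 against 0.20 to 0.45, a list in which 3 of 6 genes passed the filter. Tumour 1 stood apart for Gpi1 at 606 CPM, against 389 to 418 CPM, and for the Gfpt2 share of Gfpt1 plus Gfpt2 at 11.1%, against 1.49 to 2.31%. The call for this share held on the percent scale only, with a gap over range of 0.914. On the log2 scale the Gfpt1 to Gfpt2 difference (0.790) and Gfpt2 itself (0.573) fell short of the criterion. Tumour 4 stood apart on the low side for the fibroblast list, at a mean log2 CPM of 4.96 against 5.32 to 5.38.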

How the results depend on the processing

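None of the 5 pair differences changed direction under any alternative run. The order of the 10 members per kilobase was not rerun with other lengths. Annotated exons add up to 10072 nt for Gfpt1 against 6238 nt in its longest transcript, and to 3069 against 2683 nt for Ugp2. The order of members close in level may therefore depend on the length used. The Pygl share of Pygl plus Pygb moved by more than its SD between tumours, from 8.87% to 14.7%, with the longest transcript length in place of the union of exons, and the Pygb to Pygl fold then went from 10.5 to 5.90, because the union length of Pygl is longer. Leaving out 1 tumour moved other values by more than 1.5 times. Without tumour 1 the mean Gfpt2 share went from 4.25% to 1.96% (its SD between tumours is 4.59), and the SD of Uap1 went from 0.49 to 0.14. Without tumour 2 the SD of Ugp2 went from 0.13 to 0.014. Leaving out each tumour in turn gave 8807 to 10244 genes, 9 to 10 members and 41 to 48 partner genes varying beyond counting noise. Without a filter on low levels the share of all genes called was 53.5%, and at a mean of at least 10 CPM it was 85.3%. No paired analysis was possible because the labels give 1 group, and the comparisons between genes were already made within each tumour. Leaving out a tumour left 3, with which the sign-flip test cannot give a p below 0.25, so its p-values say nothing about stability. With 4 libraries of 1 group, the spread of a member rested on 1 tumour in several cases given above, and Gfpt2, at 27 to 207 counts, was the member read least deeply.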
